A study of Mus musculus with 2 samples.

Results

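Jchain encodes the J chain, the small polypeptide that joins antibody units into pentameric IgM and dimeric IgA. Its transcripts were counted here cell by cell in dissociated mouse lung, in 2 droplet libraries. The members sought were 10 genes, chosen by symbol: Jchain and the immunoglobulin constant genes Ighm, Ighd, Igha, Ighg2b, Ighg2c, Igkc, Iglc1, Iglc2 and Iglc3. Of these, 1 was analysed, Jchain, out of 27998 listed genes, and the other 9 were not analysed here. The label of the set, antibody constant genes, is therefore not borne by the values, which are those of the J chain alone, and antibody isotype and light chain type were not measured.

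Each library came from 1 male C57Bl/6J mouse aged 3 months, and the groups are labelled control and fibrosis. The protocol given for both describes 100 µg of titanium dioxide or of crocidolite asbestos placed in the trachea and harvest 14 days afterwards. It does not state which animal had which particle. Inhaled crocidolite fibres cause asbestosis, while titanium dioxide serves in such models as a particle that does not. Since each group is a single library, nothing here was tested against animal-to-animal spread, and every 95% interval covers counting error only.

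Antibody-secreting plasma cells arise from B cells. On the way they give up most surface B cell genes and enlarge the machinery that folds and exports protein. J chain made by these cells is the part of polymeric IgA and IgM that the polymeric immunoglobulin receptor, Pigr, recognises on the underside of mucosal epithelium, where it carries the antibody to the airway surface. Plasma cells are few in a digested lung and each holds a great deal of J chain message, so some of it can reach other droplets as free RNA.

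The genes sought lie at 4 loci on GRCm38 (GENCODE M21). Jchain (ENSMUSG00000067149) is a protein-coding gene on chromosome 5, 88519809 to 88527891, minus strand. The heavy chain constant genes lie on the minus strand of chromosome 12, from Igha at 113254830 to 113260236 up to Ighm at 113418558 to 113422730. Igkc lies on the plus strand of chromosome 6, 70726435 to 70726966, and the lambda genes lie on the minus strand of chromosome 16, from Iglc1 at 19061618 to Iglc2 ending at 19200351. The J chain is thus encoded apart from the antibody genes and undergoes no rearrangement. The RefSeq start of Jchain, used for the window and distances below, differs from the GENCODE one at 88527891. The 250 bases before the RefSeq start are shown because immunoglobulin promoters typically carry an octamer that can be looked for here (RefSeq, GRCm38.p6, chr5:88527898-88528147, minus strand, with E-boxes in capitals).
Jchain promoter: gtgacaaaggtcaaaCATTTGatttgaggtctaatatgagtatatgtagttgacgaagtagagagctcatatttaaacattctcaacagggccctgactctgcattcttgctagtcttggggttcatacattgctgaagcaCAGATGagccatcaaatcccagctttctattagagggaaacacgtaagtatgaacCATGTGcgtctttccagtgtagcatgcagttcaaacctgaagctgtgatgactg
The octamer ATGCAAAT was searched on both strands and had 0 matches in this window, and 526 of all 32851 promoter windows of this length hold it (1.601%). The E-box CANNTG, a general motif of basic helix-loop-helix factors, had 3 matches, beginning 235, 109 and 54 bases before the start. E-boxes occur in 66.2% of windows. The ETS core GAGGAA and CCACG, part of the endoplasmic reticulum stress element, had 0 matches and occur in 23.3% and 28.3% of windows. These are matches of letters and not measured binding.

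The filters left 8025 cells of the control mouse and 6945 of the fibrosis mouse. The median cell held 3811 and 4340 unique molecular identifiers (UMIs, each standing for 1 captured transcript). The deposited cells held 36632591 and 38090308 UMIs in all. Among deposited cells the lowest total was 1460 UMIs (control) and 1915 UMIs (fibrosis). Of the barcodes, 89 occurred in both libraries, and none of these cells held a Jchain UMI in either. Cells were gated on raw UMIs of marker genes into 20 classes, 18 of them outside the B lineage. B cells needed at least 2 UMIs of Cd79a, and plasma-like cells at least 5 UMIs of Jchain. Cells passing gates of more than 1 lineage were set apart, which concerned 817 control and 1109 fibrosis cells.

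Jchain transcripts were more abundant in the fibrosis library and lay almost wholly in a handful of cells. The control library held 1151 Jchain UMIs, or 32.2 CPM (the gene's UMIs per 1e6 UMIs of the set; 30.4 to 34.2). The fibrosis library held 4362, or 117 CPM (114 to 121), which was 3.64-fold more. Of the control UMIs 66.6% came from 1 cell, and the leading fibrosis cell gave 19.0%. Without the leading cell of each library the log2 ratio of fibrosis to control went from 1.86 (1.77 to 1.96) to 3.14 (2.99 to 3.29). Among the 13962 genes with at least 50 UMIs over both libraries, 4.34% were past 2-fold higher in the fibrosis library, 2.74% were past 2-fold lower, and the median log2 ratio was 0.12. Jchain had a larger log2 ratio than all but 1.05% of them, and 93.5% of control and 95.3% of fibrosis Jchain UMIs lay in the 12 cells richest in it.

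Most cells held no Jchain, and those that held it fell into separate ranges. In the control library 7980 cells held 0 UMIs, 39 held 1 and none held 2 to 4. The remaining 6 held 766, 310, 12, 11, 7 and 6. In the fibrosis library 6771 cells held 0, 154 held 1, and 6 held 2 to 4. The 14 cells above the gate held 829, 688, 661, 638, 533, 340, 206, 108, 78, 76, 20, 6, 5 and 5. No cell held between 20 and 76 UMIs, so 12 cells stood apart as Jchain-rich, 2 of them control and 10 fibrosis cells, a division at 50 UMIs made after the values were seen. Just inside the gate of 5 UMIs were cells at 5 and 6, and just outside it was 1 fibrosis cell at 4, a ciliated cell by its markers.

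**Figure D1:**
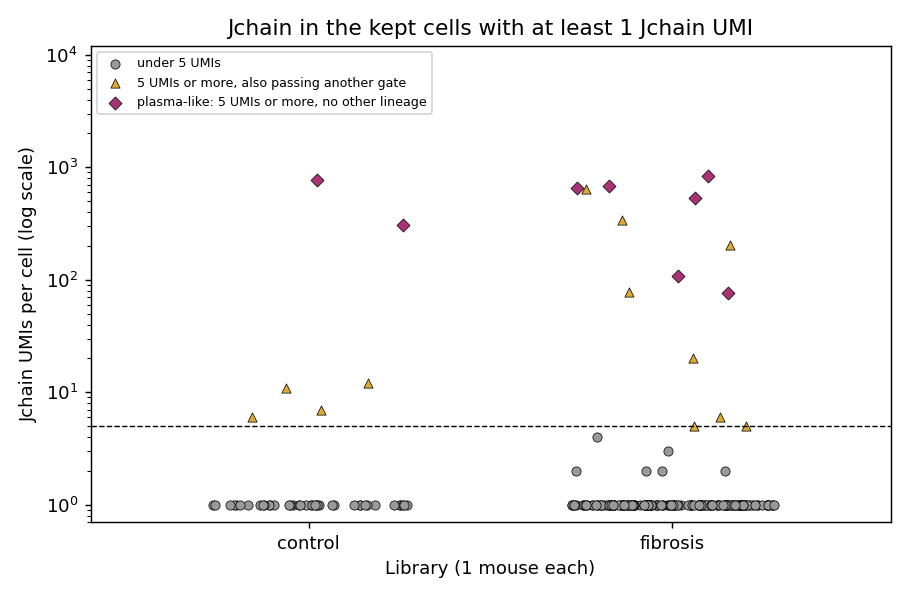
Jchain UMIs in each kept cell with at least 1 (vertical axis, log scale) in the control and fibrosis library, with the gate of 5 UMIs as a dashed line and horizontal scatter for legibility. Grey points are under the gate, diamonds are plasma-like and triangles pass another gate too. The 12 Jchain-rich cells, 2 control and 10 fibrosis, sit at 76 UMIs or above, and nearly all other cells sit at 1.

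Jchain-rich cells made up 0.0249% of control cells (exact 95% interval 0.00302 to 0.0900) and 0.144% of fibrosis cells (0.0691 to 0.265). With all cells at 5 UMIs or more the shares were 0.0748% (0.0274 to 0.163) and 0.202% (0.110 to 0.338). Under the plasma-like definition, which also requires that no gate of another lineage be passed, there were 2 control cells (0.0249%) and 6 fibrosis cells (0.0864%, 0.0317 to 0.188). The log2 ratio of the shares, fibrosis over control, was 2.28 at 50 UMIs or more (0.30 to 5.76), 1.37 at 5 or more (-0.04 to 3.10) and 1.59 for plasma-like cells (-0.69 to 5.13). Its interval lay above 0 for the first count, whose division was made on these values, and took in 0 for the others. A doublet score that marked 515 control and 386 fibrosis cells took in both control and 8 of the 10 fibrosis Jchain-rich cells. Without the marked cells 0 of 7510 control cells remained plasma-like. With that count the share can be as high as 0.0399% by a limit of 3 counts and 0.0491% by the exact interval. In the fibrosis library 2 cells remained (0.0305%).

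The 12 Jchain-rich cells carried genes of the plasma cell programme, to differing extents, and the other 8 gated cells carried few. Of 10 listed plasma cell genes, Jchain-rich cells had UMIs of 5 to 9 (median 7.5), against 1 or 2 in the 8 cells with 5 to 20 Jchain UMIs. Mzb1, a chaperone of antibody assembly in the endoplasmic reticulum, held 5 to 53 UMIs in each of the 12 and 0 to 3 in the 8. Xbp1, the transcription factor that expands the secretory machinery, held 2 to 37 in the 12 and 0 to 5 in the 8. Derl3, of the pathway that clears misfolded protein from the endoplasmic reticulum, was present in 10 of the 12 and in none of the 8. Tnfrsf17, the plasma cell survival receptor BCMA, was present in 8 and in none, and Irf4, a factor required for plasma cell formation, in 7 and in none. Prdm1, which encodes Blimp-1, was present in 10 of the 12 and in 1 of the 8.

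The 8 cells with 5 to 20 Jchain UMIs instead carried markers of other lineages, and every one of them passed another gate. Of these, 4 passed the interstitial macrophage gate, 2 the T cell gate and 1 the B cell gate, with some cells passing several. That B-gated cell, from the control library, held 19 Cd79a and 11 Ms4a1 UMIs. Jchain made up 0.107% to 0.439% of the UMIs in the 8 cells and 1.20% to 14.2% in the 12, as a division made on Jchain sets apart. The name plasma-like therefore fits most of the 12 by markers that the gate did not use, and it is not borne out in the 8. It is less sure in the fibrosis cells with 108 and 78 Jchain UMIs, which each had UMIs of 5 plasma cell genes and 0 UMIs of Tnfrsf17. The cell with 108 held 0 UMIs of Irf4 and of Derl3, and its 16 UMIs over the plasma cell genes were the fewest of the 12. The cell with 78 held 0 UMIs of Cd79a, as did the one with 638, but 21 of Mzb1 and 6 of Derl3. Of the 12, 4 fibrosis cells also passed a gate of another lineage. Those with 340 and 78 Jchain UMIs passed the gate of AT2 cells, the surfactant-making cells of the alveolus, and the latter also that of plasmacytoid dendritic cells, although it held 0 UMIs of Siglech. The one with 638 passed the NK cell gate and the one with 206 the alveolar macrophage gate. Their plasma cell genes with UMIs numbered 6, 5, 9 and 8. Every one of the 12 held UMIs of Sftpc (5 to 244), the surfactant gene of AT2 cells, and of Scgb1a1 (10 to 47), the secretory gene of club cells, and so did each of the 8, and the part of such RNA in the gates passed was not tested.

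**Figure D2:**
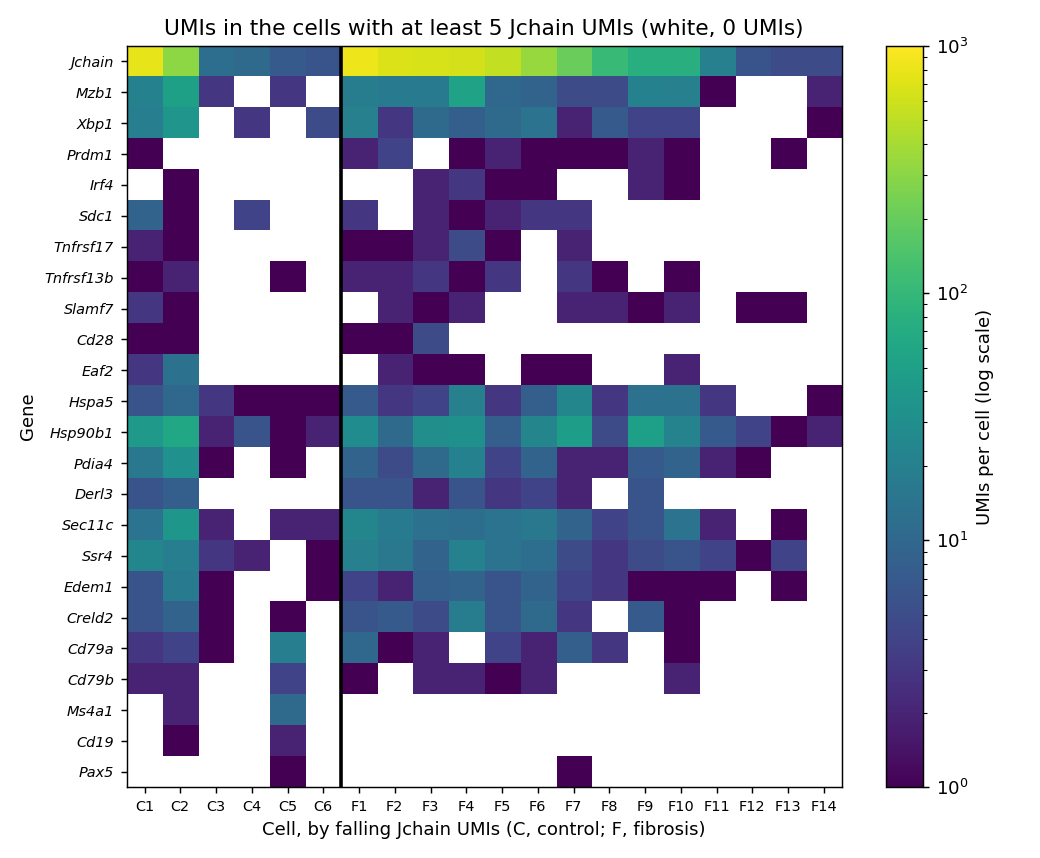
UMIs of Jchain, plasma cell, secretory and B cell genes (rows; colour, log scale; white is 0) in each of the 20 cells with at least 5 Jchain UMIs (columns, control then fibrosis, by falling Jchain). The first 2 control (C1, C2) and first 10 fibrosis columns (F1 to F10) are filled in most rows from Mzb1 to Creld2, and the later columns are mostly white from Prdm1 to Eaf2.

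The Jchain-rich cells varied widely in how much of their message was J chain. Counting at the 3′ end gives 1 tag per transcript whatever its length, and by this count Jchain was the first gene in 7 of the 12 cells and between rank 2 and rank 5 in the others. The control cell with 766 Jchain UMIs gave 14.2% of its UMIs to Jchain, and the one with 310 gave 2.77%. The 5 fibrosis cells with the most gave 9.35% to 13.9%, and the other 5 gave 1.20% to 4.53%. These percentages are of the listed genes alone, since antibody chains were not analysed here. Cell totals ran from 3840 to 11506 UMIs and mitochondrial shares from 2.21% to 6.20%.

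Over the 8 plasma-like cells, all 12 secretory genes and all 10 plasma cell genes stood higher in CPM than in the gated B cells. Hsp90b1, an endoplasmic reticulum chaperone, stood at 6282 CPM in the control (5133 to 7612) and 3043 in the fibrosis plasma-like cells (2489 to 3684), against 197 and 292 in B cells. Sec11c, a subunit of the signal peptidase, stood at 3202 and 2492, against 186 and 197. Ssr4, a subunit of the complex beside the translocon, stood at 2598 and 1971, against 149 and 159. For these 3 genes the order was the same in each library. The gap was small for others in the control, where Tnfrsf13b stood at 181 (37.4 to 530) in plasma-like cells against 156 in B cells. Because both sets are defined by their own gene, this is a description of the cells and not a test.

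Among the plasma cell genes, Mzb1 stood at 4349 CPM in the control (3403 to 5477) and 2521 in the fibrosis plasma-like cells (2019 to 3110), against 480 and 439 in B cells. Xbp1 stood at 3383 (2555 to 4393) and 1623 (1226 to 2107), against 47.7 and 51.3. Eaf2, a transcription elongation partner, stood at 967 (552 to 1570) and 145 (47.0 to 338), against 5.96 and 5.23. For these 3 genes the control intervals lay above the fibrosis ones, but the control value rests on 2 cells. Mzb1 held 21 and 51 UMIs in these cells and Xbp1 19 and 37, in totals of 5377 and 11177 UMIs. Tnfrsf17 held 8 UMIs in the plasma-like cells and 0 in the B cells of both libraries. With the B cells of both libraries together set to 3 counts, its level was 146-fold higher in the plasma-like cells. That value leaves out the counting error of the 8 UMIs.

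B cell genes stood lower in the plasma-like cells. None of 10 genes of the B cell receptor and surface list stood above its B cell level. Cd79a, the signalling partner of the antigen receptor, stood at 423 CPM in the control (170 to 871) and 609 in the fibrosis plasma-like cells (377 to 930), against 2990 and 2246 in the B cells that it defines. Its partner Cd79b stood at 242 and 174, against 1826 and 1345. Fcrla stood at 121 (2 UMIs, 14.6 to 436) and 86.9 (3 UMIs, 17.9 to 254), against 267 and 199. Its intervals take in the B cell levels. Of the transcription factors, Ebf1, which holds B cell identity, had 1 UMI in the 8 cells and stood at 1803 and 1382 CPM in B cells. Pou2af1, a coactivator of antibody gene transcription, was the 1 of 6 that stood higher, at 483 and 493 against 228 and 195. Ikzf3 had 1 UMI.

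Smaller lists gave few counts in the plasma-like cells. Of the germinal centre list, Fas had 2 UMIs and Nuggc 1. Of the B-1 list, Bhlhe41 had 4 and Spn 3, and Cd5 had 0. Vpreb3 had 7 UMIs, and the surrogate light chain genes Igll1 and Vpreb1 had 0. Ccr7 and the antibody receptors Fcgrt and Fcgr3 had 2 UMIs each, Cd9 and Fcgr2b 6 each. At these counts no difference between the libraries could be seen.

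The genes whose levels most resembled those of Jchain over the 40 class and library points were Derl3 (Pearson r 0.91), Srp9 (0.80), Txndc11 (0.79), Ssr4 (0.77) and Sec11c (0.76), among 12919 genes with at least 100 UMIs. Derl3 stood at 846 and 493 CPM in plasma-like cells and at 1.08 and 1.05 in B cells. Srp9, part of the signal recognition particle, stood at 1087 and 1014 against 211 and 201. The resemblance came from the 2 plasma-like points. Over the other 38 points r was 0.31 for Derl3 and between -0.05 and 0.09 for the other 4. The points share libraries and depth, and r is given as a description.

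Outside these cells Jchain was low in every lineage, including those that should lack it, and the low level was higher in the fibrosis library. Cells of another lineage with 5 or more Jchain UMIs had been set apart, so every cell counted here held under 5 by definition. Over all cells gated to another lineage it stood at 1.04 CPM in the control (27 UMIs in 5701 cells, 0.684 to 1.51) and 4.78 in the fibrosis library (121 UMIs in 4875 cells, 3.96 to 5.71). Over all cells below the gate of 5 UMIs the values were 1.09 (39 UMIs) and 4.55 (169 UMIs), a log2 ratio of 2.04 (1.55 to 2.60). In that comparison 4.40% of genes were past 2-fold higher and 2.73% past 2-fold lower in the fibrosis library. For every 1000 Jchain UMIs inside cells above the gate there were 35.1 below it (control) and 40.3 (fibrosis). Without the leading cell of each library there were 113 and 50.2, so the near match of the libraries rests on the control cell with 766 UMIs. The cells below the gate held 3.39% and 3.87% of all Jchain UMIs.

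No gated class outside the B lineage stood near the plasma-like cells, a gap that the gate of 5 Jchain UMIs itself largely sets. The plasma-like cells, which Jchain itself defines, stood at 64999 CPM (61173 to 69002) in the control and 83898.5 (80870 to 87012) in the fibrosis library. These values rest on 2 and 6 cells, and their intervals leave out the spread between cells. The 2 control cells gave 14.2% and 2.77% of their UMIs to Jchain. The pooled level of 1.04 lay within the counting interval of 17 of the 18 control classes, all but the 30 mesothelial cells, which held 2 UMIs (9.20, 1.11 to 33.2). The pooled level of 4.78 lay within the interval of all 18 fibrosis classes. Of the control classes 7 held 0 UMIs and most others 1 to 4, so these intervals are wide, and each class is part of the pool. In 15 of the 18 classes the fibrosis value was the higher, the exceptions being AT1 (alveolar lining), endothelial and mesothelial cells, each with at most 2 UMIs in either library. Control AT2 cells held 4 UMIs (0.887, 0.242 to 2.27) and fibrosis ones 33 (4.45, 3.06 to 6.25). Alveolar macrophages held 2 (0.579, 0.0701 to 2.09) and 30 (5.54, 3.74 to 7.91). T cells held 0 UMIs in 641 control cells, which allows up to 1.58 CPM by the limit of 3 counts and 1.94 by the exact interval. In 624 fibrosis cells they held 8 UMIs (4.25, 1.83 to 8.37). Ciliated cells held 0 and 8 UMIs (10.3, 4.46 to 20.4), of which 4 lay in 1 cell. Cells of more than 1 lineage with under 5 Jchain UMIs stood at 1.09 (0.401 to 2.38) and 3.08 (2.03 to 4.48), and cells passing no gate at 0.429 (0.0109 to 2.39) and 8.14 (4.74 to 13.04).

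**Figure D3:**
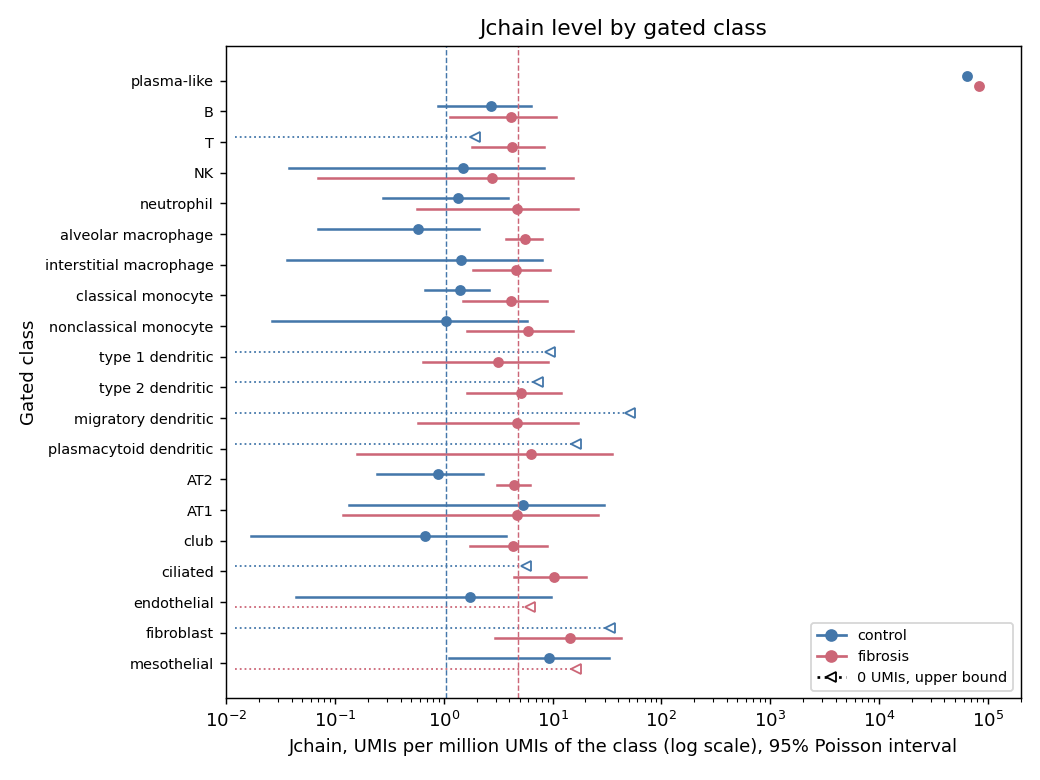
Jchain UMIs per 1e6 class UMIs, or CPM, (horizontal axis, log scale) with 95% Poisson intervals for each gated class in the control (blue) and fibrosis (red) library, open triangles marking the upper bound of a class at 0. Dashed lines give the pooled level outside the B lineage, 1.04 and 4.78, and only the plasma-like class, defined by Jchain, stands far above them.

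B cells by Cd79a are low in Jchain by definition, since 3 control and 6 fibrosis cells that passed the Cd79a gate held at least 5 Jchain UMIs and were placed among the plasma-like or mixed cells. The remaining B cells held 5 Jchain UMIs in 845 control cells (2.71 CPM, 0.880 to 6.33) and 4 in 346 fibrosis cells (4.18, 1.14 to 10.7). The share of B cells with a Jchain UMI was 0.592% (0.192 to 1.38) and 1.16% (0.316 to 2.93), against 0.474% and 2.36% of cells outside the lineage, at median depths of 1855 and 2537 UMIs for B cells and 4066 and 4376 for the others. After thinning each cell to 1000 UMIs the shares were 0.237% and 0.289% in B cells and 0.123% and 0.369% outside. Plasmacytoid dendritic cells, a second cell type in which J chain message has been described, held 0 UMIs in 60 control cells and 1 in 45 fibrosis cells. The control count allows up to 13.3 CPM by the limit of 3 counts and 16.3 by the exact interval.

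The B cells themselves were a smaller share of the fibrosis library, by a gap that depended on the lowest UMI total allowed. They made up 10.5% of kept control cells (845 cells, 9.87 to 11.2) and 4.98% of fibrosis cells (346, 4.48 to 5.52). With a UMI floor of 1915 in both libraries the control share was 5.91% (5.35 to 6.50), and its interval overlapped that of the fibrosis share. The median control B cell, at 1855 UMIs, lies under that floor. Of cells with at least 2 Cd79a and under 5 Jchain UMIs, 21.1% of control and 39.7% of fibrosis ones passed a gate of another lineage as well and were set apart. With these kept in, the shares were 13.3% and 8.26%.

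Within B cells most listed genes of the antibody pathway with at least 50 UMIs were within 2-fold between the libraries. Of these genes 4 were past it, all higher in the fibrosis library: Cd9, Slamf7, Edem1 and Fcer1g. Listed genes with fewer UMIs were left out of this count, and some were past 2-fold, such as Sdc1 (lower) and Bhlhe41 (higher). Of 4908 genes with at least 50 UMIs in B cells, 2.10% were past 2-fold higher and 1.06% past 2-fold lower in the fibrosis library, with a median log2 ratio of -0.01. None of the 10 receptor and surface genes was past 2-fold in either direction. Their median was -0.28, and 6 of the 10 had intervals below 0, as did 8.94% of the 4908 genes, while 9.52% had intervals above 0. Intervals narrow as counts rise, and the 6 held 682 to 7663 UMIs in B cells, against a minimum of 50 for the 4908. The 2 shares are therefore not matched on counts. Cd79a had a log2 ratio of -0.41 (-0.49 to -0.34) and is the gene that gates the cells. Cd79b had -0.44 (-0.53 to -0.35) and Ms4a1, the B cell surface protein CD20, -0.15 (-0.27 to -0.03). None of 6 transcription factors was past 2-fold. Ebf1 had -0.38 (-0.48 to -0.29), Pax5 0.04 (-0.21 to 0.30) and Pou2af1 -0.22 (-0.48 to 0.03).

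Of the 8 mature and marginal zone genes, 1 was past 2-fold, Cd9, at 57.5 and 136 CPM (log2 ratio 1.24, 0.86 to 1.63). Cells outside the B lineage held Cd9 at 882 and 1254 CPM, and the part of free RNA in its B cell value was not tested. Ccr7, a receptor that guides cells to lymph nodes, had -0.62 (-0.85 to -0.40) and Mzb1 -0.13 (-0.30 to 0.04). Of the plasma cell list 5 genes were counted in B cells and 1 was past 2-fold higher, Slamf7, with 25 and 28 UMIs (1.11, 0.28 to 1.95). Xbp1 had 0.11 (-0.43 to 0.62) and Tnfrsf13b, a receptor for the survival factors BAFF and APRIL, -0.07 (-0.37 to 0.22). Of 10 secretory genes counted, 1 was past 2-fold higher, Edem1, with 26 and 30 UMIs (1.15, 0.35 to 1.97). Hsp90b1 had 0.57 (0.34 to 0.80), Sec11c 0.08 (-0.18 to 0.34) and Hspa5, the chaperone BiP, 0.03 (-0.24 to 0.30). Of 3 antibody receptor genes counted, Fcer1g was past 2-fold higher, at 95.9 and 222 CPM (1.21, 0.91 to 1.50). Outside the lineage Fcer1g stood at 1727 and 992. Fcgr2b, the inhibitory antibody receptor of B cells, had 0.23 (-0.20 to 0.64) and Fcgrt, the neonatal antibody receptor, 0.02 (-0.72 to 0.70). Vpreb3 had -0.16 (-0.38 to 0.05).

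B-1 cells are the innate-like B cells that make natural IgM, and 3 of the 4 genes of their list had intervals above 0 in B cells, at 39 to 49 UMIs each. Of 1593 genes with 30 to 49 UMIs in B cells, a range set after the values were seen, 6.34% had intervals above 0 and 2.45% below 0. Bhlhe41, a transcription factor of B-1 cells, had 12 control and 27 fibrosis UMIs (6.50 and 28.2 CPM, log2 ratio 2.09, 1.09 to 3.23). Zbtb32, a transcriptional repressor, had 16 and 28 UMIs (1.74, 0.82 to 2.74), and Spn, the surface protein CD43, had 21 and 28 (1.36, 0.50 to 2.25). Bcl6, a germinal centre factor, had 17 and 20 UMIs (1.18, 0.18 to 2.21), and Cd5 had 4 and 1. Fas had 12 and 5 UMIs, S1pr2 3 and 2, and the surrogate light chain genes Igll1 and Vpreb1 9 and 0, and 11 and 3. Sdc1, the plasma cell surface protein CD138, had 25 control and 3 fibrosis UMIs in B cells (-1.92, -4.48 to -0.40). Outside the B lineage Bhlhe41 stood at 18.1 and 36.2 CPM, Spn at 49.3 and 37.5 and Zbtb32 at 2.73 and 2.01. The part of free RNA in these values was not tested.

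The receptor that binds the J chain was higher in club, ciliated and AT2 cells of the fibrosis library. Pigr (ENSMUSG00000026417) was highest in club cells, the secretory cells of the small airways, at 182 CPM in the control (161 to 205) and 314 in the fibrosis library (287 to 342), a log2 ratio of 0.79 (0.57 to 1.00). In ciliated cells it stood at 49.1 (32 UMIs, 33.6 to 69.4) and 235 (182 UMIs, 202 to 272), a log2 ratio of 2.24 (1.71 to 2.85). In AT2 cells it stood at 6.43 (29 UMIs, 4.31 to 9.24) and 23.7 (176 UMIs, 20.4 to 27.5), a log2 ratio of 1.86 (1.31 to 2.50). Genes past 2-fold higher made up 3.17% of those counted in club, 2.21% in ciliated and 1.70% in AT2 cells, and genes past 2-fold lower 0.376%, 0.871% and 0.496%. Pigr was past 2-fold in ciliated and AT2 cells and not in club cells. These 3 classes belong to 1 lineage, so doublets between them were not set apart. The part of club cell RNA in the ciliated and AT2 values was not tested. Among cells that should lack it, T cells held 2 and 3 UMIs (1.05 and 1.59 CPM) and B cells 7 and 5 (3.79, 1.53 to 7.82, and 5.23, 1.70 to 12.2). Club and ciliated levels lay above both in each library and AT2 levels in the fibrosis library, while the control AT2 interval overlapped that of the B cells.

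Fcamr, a receptor for IgA and IgM, had 1 UMI in the control ciliated cells (1.54 CPM, 0.0389 to 8.56) and 20 in the fibrosis ones (25.8, 15.8 to 39.9), from 82 cells in each. Its log2 ratio was 3.52 (1.43 to 9.45), with fewer than 50 UMIs in all. Club cells held 2 and 7 UMIs, and T cells held 0 in both libraries. AT2 cells held 0 and 1.

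**Figure D4:**
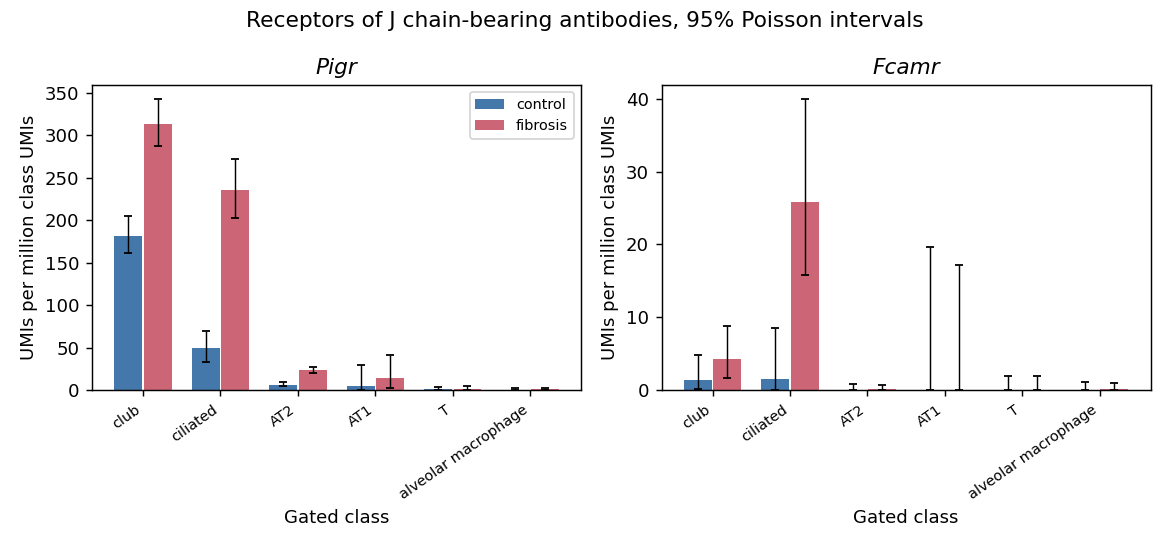
Pigr (left) and Fcamr (right) in UMIs per 1e6 class UMIs, or CPM, for 4 epithelial classes, T cells and alveolar macrophages in the control (blue) and fibrosis (red) library, with 95% Poisson intervals. Pigr bars reach 182 and 314 in club cells and 49.1 and 235 in ciliated cells, while T cell bars stay near 1.

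The receptors for the antibody stem named below stood highest in myeloid cells but were not confined to them. Fcgr2b stood at 69.9 and 81.6 CPM in B cells, and Fcgrt at 76.4 and 78.7 in endothelial cells. Fcgr1, the high-affinity IgG receptor, was highest in interstitial macrophages, at 116 CPM in the control (91.9 to 144) and 70.1 in the fibrosis library (57.5 to 84.8). Classical monocytes, at 86.6 (79.9 to 93.7) and 68.5 (55.8 to 83.3), did not differ from them beyond the intervals in either library. Fcgr4 was highest in nonclassical monocytes, at 267 (235 to 301) and 225 (191 to 264). Fcgr2b in interstitial macrophages stood at 303 (263 to 346) and 518 (482 to 555), and Fcgr3 in the same cells at 608 (552 to 669) and 541 (504 to 579). Fcgrt was highest in interstitial macrophages, at 327 (286 to 372) and 193 (172 to 217), although the control fibroblasts (255, 170 to 369) and fibrosis fibroblasts (192, 137 to 262) did not differ from them beyond their intervals.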

How the data were processed

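The authors deposited raw UMI counts per gene and cell, whole numbers without normalization, from droplet capture with 3′ V2 chemistry, per the labels. The submitters' processing notes name bcl2fastq, Cell Ranger 1.3 and mm10, and the annotation is not given in the sources used here. Filters kept cells with at least 200 genes (failing: 1 control and 0 fibrosis cells) and at most 10% mitochondrial UMIs (failing: 254 and 228). Gates were sums of raw marker UMIs, and within a lineage the class with the highest sum over its minimum was taken. Doublets were handled by setting aside cells of more than 1 lineage, so doublets within a lineage, such as club with ciliated cells, stayed in. As an alternative, the top-scoring cells by scrublet (scanpy 1.11.5, 0.8% per 1000 cells) were left out. UMIs were summed by class and library and given as CPM, with exact Poisson intervals (scipy 1.17.1). Shares have Clopper-Pearson intervals, and log2 ratios, fibrosis over control, have 0.5 UMI added and exact conditional intervals. A count of 0 was given a limit of 3 counts. The ratio was tried on data simulated as independent Poisson counts, the model its interval assumes. That trial does not cover UMIs clustered in a few cells, as those of Jchain were. PCR and free RNA are outside the intervals. Named were all members, and of each list the 3 genes with most UMIs in B and in plasma-like cells. Some of these are not reported here. Other named genes, and the division at 50 Jchain UMIs, were chosen after their values were seen. Members, gates and lists were chosen with earlier results of these data known. The planned values for antibody constant and variable genes were not computed, since those genes were not analysed here.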

Additional observations from a re-analysis of the deposited data

How the results depend on the processing

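Of 67 values under other settings, 17 moved beyond the counting interval of the reported value, 34 differed but stayed within it, and 16 were identical because the setting does not enter them or moved no cell. None of the 19 log2 ratios changed sign. The control B cell share was 11.3% with a Cd79a gate of 1 UMI, 9.68% with 3 and 8.39% with Ms4a1 required. It was 13.3% with mixed cells kept, 5.91% with the same UMI floor and 16.0% of leukocytes. The fibrosis share was 4.06% with Ms4a1 required, 8.26% with mixed cells kept and 9.88% of leukocytes. Without scored doublets the plasma-like shares were 0% and 0.0305%, and with mixed cells kept the fibrosis share was 0.202%. The log2 ratio of Jchain over all cells was 2.35 without scored doublets, 1.77 with the same floor and 2.26 after thinning. It was 3.14 without the leading cell of each library, a setting added after seeing the data, as was the gate of 50 UMIs. Thinning gave 3.90 CPM outside the B lineage in the fibrosis library. The log2 ratio below the gate stayed within its interval under the 5 settings that altered it. No paired analysis was possible because each group has 1 library, and its number names a mouse and pairs nothing.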

Other observations

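One Jchain-rich cell carried genes of cell division, looked up after its values were seen. The control cell with 310 Jchain UMIs held 9 UMIs of Top2a, 8 of Mki67 and 2 of Birc5, in a total of 11177 UMIs. It was also the only one of the 12 with Ms4a1 UMIs, 2 in number. Among the other 11, 1 held a Top2a UMI, 1 a Birc5 UMI and none an Mki67 UMI.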
